A study of Mus musculus with 6 samples.

Results

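Cytotoxic granule genes are described here in adaptive regulatory T cells (aTreg) that lack the bone morphogenetic protein receptor BMPR1a and in wild type (WT) aTreg. The set was chosen by name, with earlier results of these data known. It holds 10 genes of the 25759 identifiers in the deposited table: the granzymes Gzma, Gzmb, Gzmc and Gzmk, the pore former Prf1, the granule proteins Nkg7, Srgn and Lamp1, and the granzyme inhibitors Serpinb9 and Serpinb6b. All 10 were found by symbol, and 8 of them passed the filter of a mean of at least 1 FPKM (fragments scaled to transcript length and library depth) over the 6 libraries. Gzma and Gzmk lay below it and were not tested.

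There were 3 BMPR1a-deficient libraries, from C57BL/6 mice labelled BMPR/CD4cre, and 3 WT libraries, from normal B6 mice. All mice were 8 to 12 weeks old and carried a Foxp3GFP reporter. In both groups, whole lymph node and spleen cells were cultured for 3 days with 10 ng/ml of IL-2, 3 ng/ml of TGF-beta and 2 µg/ml of the mitogen ConA, before reporter-positive CD4+ cells were sorted. The CD4cre driver acts in the whole T cell lineage that passes through a CD4 stage, so the receptor is removed in more cells than Treg, and the culture held cells other than T cells. Whether libraries of a group came from separate mice or cultures is not stated in the labels. The p-values therefore rest on the spread between these 6 libraries alone, which may be technical.

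Killer lymphocytes keep granzymes and perforin in lysosome-like granules, packed on the proteoglycan serglycin, the product of Srgn. When the granules fuse with the cell membrane, perforin opens pores in the target cell and granzymes enter and cleave their substrates. The killing cell is shielded by serpins in its own cytosol. Regulatory T cells can also carry granzyme B, and use of it against other lymphocytes has been described as a mode of suppression.

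The granule genes did not all move in the same direction. The log2 fold change was negative in 7 of the 8 members tested, against 5973 of all 13413 genes tested, and positive in Nkg7. Nkg7 rose in BMPR1a-deficient aTreg, to 186 ± 12.3 FPKM against 67.0 ± 13.0 FPKM in WT (SD, n = 3 each). All BMPR1a-deficient values of Gzmb, Gzmc and Srgn lay below all WT values, but none of them passed the threshold over all genes. Prf1, Lamp1, Serpinb9 and Serpinb6b overlapped between the groups, as did the untested Gzma and Gzmk. Of the 8 members tested, 1 was higher and 0 were lower at a limma adjusted p under 0.05, against 0.746% higher and 0.321% lower among all 13413 genes tested. Of all calls 69.9% were higher, against 55.7% with quantile normalization. At an unadjusted p under 0.05 there were 4 members, against 2034 of all genes tested. The groups did not overlap in 1 member that was higher and in 3 that were lower, where 15.9% of all genes were higher and 10.4% were lower in that way. Of these, Gzmc passed the filter only through its WT values, so its place among the lower members gives no support. Gzmc is also among the 7 and the 4 members above and in the medians below. The median log2 fold change of the 8 members was -0.47, against 0.04 over all genes tested, and -0.18 against 0.07 without BMPR1a-deficient replicate 1. Since the members were chosen with earlier results of these data known, these counts and medians are descriptions only.

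**Figure D1:**
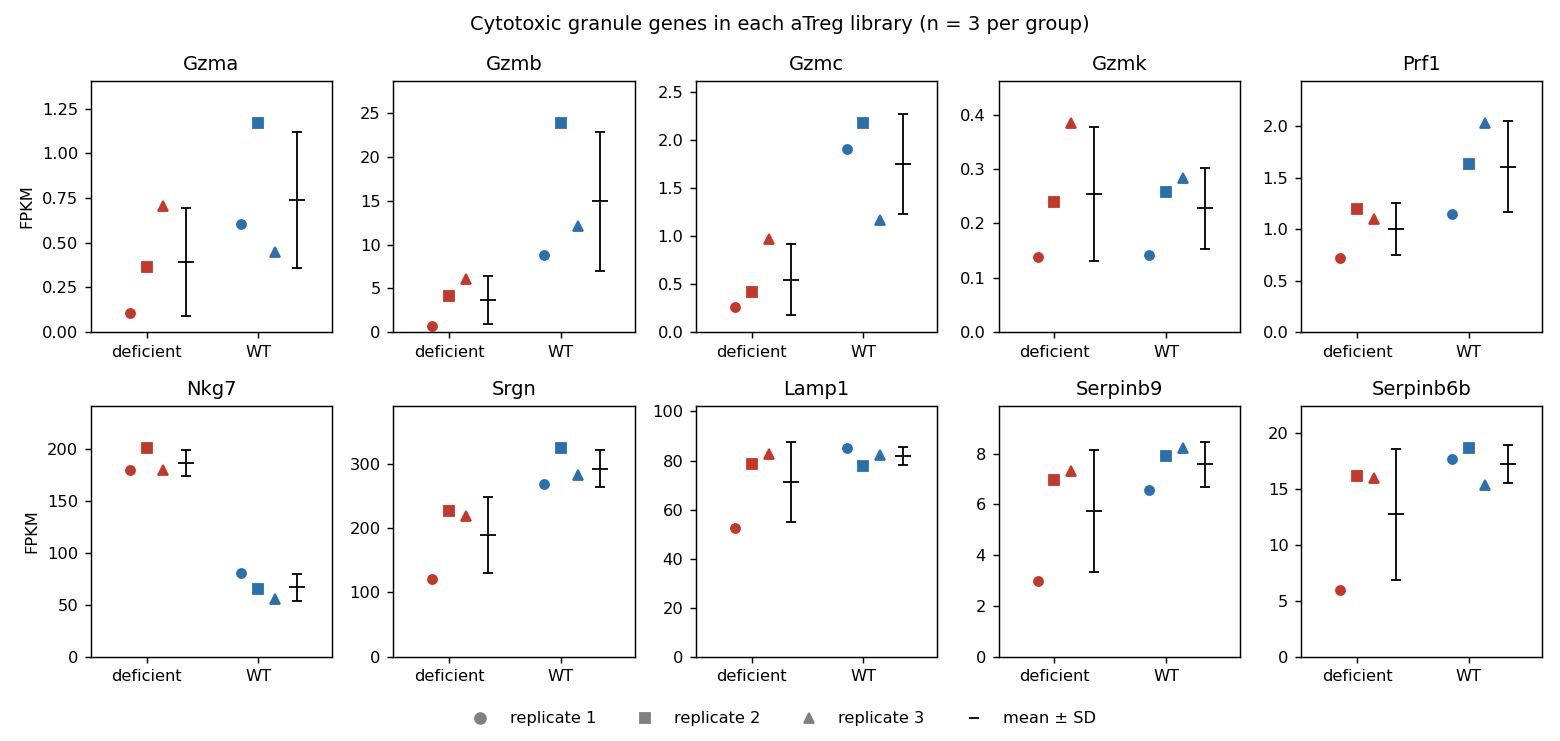
FPKM (vertical axis, from 0) of each cytotoxic granule gene in the 3 BMPR1a-deficient libraries (left, red) and the 3 WT libraries (right, blue), with the mean and SD beside each group. Nkg7 lies above all WT libraries in the BMPR1a-deficient group, Gzmb, Gzmc and Srgn lie below them, and BMPR1a-deficient replicate 1 is the lowest of all 6 libraries for every gene shown except Nkg7.

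Several measures of the libraries bear on these values. The size of the smallest steps in the table pointed to about 31400000 to 36100000 fragments per BMPR1a-deficient library and 29500000 to 37600000 per WT library. Bmpr1a itself was at 0.439, 0.720 and 0.691 FPKM in the BMPR1a-deficient libraries, against 1.39, 2.34 and 1.31 FPKM in WT (log2 fold change -0.71, SE 0.195, limma adjusted p = 0.183), and it passed the filter only through its WT values. BMPR1a-deficient replicate 1 stood apart: its 13 mitochondrially encoded mRNAs summed to 5335 FPKM, against 44657 and 44713 in the other BMPR1a-deficient libraries and 50442 to 53789 in WT. The sort was marked by Cd4, at 349 to 436 FPKM in BMPR1a-deficient libraries and 329 to 359 in WT, and by Foxp3, at 51.3 to 96.9 and 49.4 to 62.3. Because these are bulk libraries, fewer cells that carry a transcript and less transcript per cell cannot be told apart.

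Levels per transcript length spanned a wide range. In BMPR1a-deficient aTreg the order by mean FPKM was Srgn at 189 ± 59.0, Nkg7 at 186 ± 12.3, Lamp1 at 71.2 ± 16.4, Serpinb6b at 12.7 ± 5.83, Serpinb9 at 5.74 ± 2.40, Gzmb at 3.63 ± 2.74, Prf1 at 1.0 ± 0.250, Gzmc at 0.548 ± 0.372, Gzma at 0.393 ± 0.301 and Gzmk at 0.254 ± 0.123 (SD, n = 3). In WT it was Srgn at 293 ± 29.4, Lamp1 at 81.8 ± 3.80, Nkg7 at 67.0 ± 13.0, Serpinb6b at 17.3 ± 1.72, Gzmb at 15.0 ± 7.96, Serpinb9 at 7.58 ± 0.875, Gzmc at 1.75 ± 0.523, Prf1 at 1.60 ± 0.441, Gzma at 0.740 ± 0.379 and Gzmk at 0.228 ± 0.0750. In BMPR1a-deficient aTreg, the range of mean ± SD of Srgn overlapped that of Nkg7, and likewise for each pair of neighbours from Serpinb6b downwards. Within each BMPR1a-deficient library, however, Serpinb6b was above Serpinb9, Serpinb9 above Gzmb, Prf1 above Gzmc and Gzmc above Gzma. In WT the ranges of Lamp1 and Nkg7 overlapped, as did Serpinb6b with Gzmb, Gzmb with Serpinb9, and Gzmc with Prf1. Within each WT library, however, Lamp1 was above Nkg7 and Gzmb above Serpinb9. Among the genes tested, the mean of Nkg7 stood at percentile 94.9 in BMPR1a-deficient aTreg and 86.5 in WT, whereas that of Gzmb stood at percentile 20.7 and 53.9.

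Nkg7 (ENSMUSG00000004612, chromosome 7, 43437073 to 43438249 on the plus strand of GRCm38, up to 4 exons) encodes a membrane protein of cytotoxic granules that killer cells need for efficient granule release. It was at 179, 201 and 179 FPKM in the BMPR1a-deficient libraries, against 80.8, 65.0 and 55.1 FPKM in WT. The 3 BMPR1a-deficient values lay close together and far above every WT value, and replicate 1, which stood apart elsewhere, did not do so here. The log2 fold change was 1.48 (SE 0.161, limma adjusted p = 0.0202), and the mean was 2.78 times that of WT. Without BMPR1a-deficient replicate 1 it was 1.505 (limma adjusted p = 0.0427). Of the 6 fits with a library left out, 2 kept the call, with log2 fold changes of 1.35 to 1.62, and the limma adjusted p in the other 4 was 0.0827 without BMPR1a-deficient replicate 2, 0.0975 without BMPR1a-deficient replicate 3, 0.115 without WT replicate 2 and 0.0972 without WT replicate 3.

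The stretch before the RefSeq start of Nkg7 is shown because Nkg7 was the member that passed the test. It covers the 250 bases upstream of the start, chr7:43436888-43437137 on the plus strand of GRCm38.p6, and capitals mark matches to the letters searched, on either strand.
Nkg7: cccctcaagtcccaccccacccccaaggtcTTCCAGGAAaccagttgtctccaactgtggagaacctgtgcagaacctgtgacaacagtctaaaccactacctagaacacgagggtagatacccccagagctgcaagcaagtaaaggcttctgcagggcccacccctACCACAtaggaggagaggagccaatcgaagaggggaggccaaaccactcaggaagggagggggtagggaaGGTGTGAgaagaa
The letters searched were GGTGTGA for T-box factors such as T-bet and Eomes, TGTGGT for RUNX factors, TTCNNNGAA for STAT factors, TGANTCA for AP-1, TGACGTCA for CREB and ATF factors, and CAGAC for SMAD proteins. The Nkg7 stretch held GGTGTGA from 13 to 7 bases before the start, a RUNX match from 83 to 78 bases and a STAT match from 220 to 212 bases before it. The gene position given above starts at 43437073, so the end of the stretch, with GGTGTGA, lies inside the gene as annotated there. Of all 32851 promoters searched over the same length, 3.33% held the T-box letters, 14% the RUNX letters and 7.02% the STAT letters. These are matches of letters only, and none of them overlapped another.

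The tested genes with the profile nearest to Nkg7 were Axl, Tnfrsf1b and Sh3bgrl2. Likeness was the distance between log2(FPKM + 1) profiles centred on their mean over the 6 libraries, among 10024 other named protein-coding genes. Axl, a receptor tyrosine kinase, lay at a distance of 0.270 with 20.3, 19.1 and 21.4 FPKM in the BMPR1a-deficient libraries, against 7.46, 6.06 and 5.40 in WT. Tnfrsf1b, which encodes TNF receptor 2, lay at 0.352, and Sh3bgrl2 at 0.355. Sh3bgrl2, at 2.42, 2.62 and 2.99 FPKM against 0.366, 0.356 and 0.21 in WT, passed the filter only through its BMPR1a-deficient values. The distance favours genes with a like difference between the groups, so these genes give no separate support to the Nkg7 result. The same limit holds for the genes nearest to Gzmb below.

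Gzmb (ENSMUSG00000015437, chromosome 14, 56258838 to 56262260 on the minus strand of GRCm38, 5 exons) encodes granzyme B, a serine protease that cleaves after aspartate and triggers apoptosis. It was at 0.690, 4.09 and 6.11 FPKM in the BMPR1a-deficient libraries, against 8.80, 23.9 and 12.1 FPKM in WT. The groups did not overlap, both were widely spread, and BMPR1a-deficient replicate 1 was the lowest library by far. The mean was 24.3% of that of WT, and the log2 fold change was -1.90 with a large error (SE 0.610, limma adjusted p = 0.245). Without BMPR1a-deficient replicate 1 it was -1.29 (limma adjusted p = 0.222). With each library left out in turn the difference kept its direction, from -2.33 to -1.29, and passed the threshold in 0 of 6 fits. The values stood for roughly 34.8 to 317 fragments per BMPR1a-deficient library and 373 to 1056 per WT library.

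Gzmc (ENSMUSG00000079186, chromosome 14, 56231441 to 56234656, minus strand, 5 exons) lies near Gzmb and encodes granzyme C of mice. It was at 0.262, 0.414 and 0.969 FPKM in the BMPR1a-deficient libraries, against 1.91, 2.18 and 1.17 FPKM in WT. The groups did not overlap, although the highest BMPR1a-deficient library came near the lowest WT library. The log2 fold change was -0.84 (SE 0.240, limma adjusted p = 0.195), and -0.70 without BMPR1a-deficient replicate 1 (limma adjusted p = 0.222). Gzmc passed the filter only through its WT values, and its reads were few, at about 8.23 to 31.3 fragments in the BMPR1a-deficient libraries and 39.3 to 59.8 in WT. Its coding sequence matched that of Gzmb at 75.3% of 749 aligned positions. Of the stretches of 50 bases in its transcript, 4.14% also occur in other genes, among them Gzmd, Gzme and Gzmg, so a small part of its reads could be divided between genes in more than one way. Gzmb shared 0% of such stretches with any other gene.

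The stretches before the RefSeq starts of the neighbouring genes Gzmb and Gzmc are shown next, although neither gene passed the threshold. Gzmc passed the filter only through its WT values, so its lower values beside those of Gzmb give no support. Each covers 250 bases upstream of the start on the minus strand of GRCm38.p6, chr14:56262335-56262584 for Gzmb and chr14:56234658-56234907 for Gzmc, with matches to the same letters in capitals.
Gzmb: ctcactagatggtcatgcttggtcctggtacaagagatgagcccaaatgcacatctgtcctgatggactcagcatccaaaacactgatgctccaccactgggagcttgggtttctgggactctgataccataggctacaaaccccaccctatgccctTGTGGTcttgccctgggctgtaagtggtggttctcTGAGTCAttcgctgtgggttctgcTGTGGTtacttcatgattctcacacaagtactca
Gzmc: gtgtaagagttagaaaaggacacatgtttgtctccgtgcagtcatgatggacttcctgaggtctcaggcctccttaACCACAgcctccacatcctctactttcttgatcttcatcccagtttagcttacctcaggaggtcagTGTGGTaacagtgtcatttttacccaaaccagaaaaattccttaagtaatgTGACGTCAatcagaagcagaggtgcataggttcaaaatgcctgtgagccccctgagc
The Gzmb stretch held RUNX matches from 93 to 88 and from 34 to 29 bases before the start and an AP-1 match from 58 to 52 bases before it. The position of Gzmb given above ends at 56262260, so this RefSeq start lies outside the gene as annotated there. The Gzmc stretch held RUNX matches from 174 to 169 and from 108 to 103 bases before the start and a CREB/ATF match from 57 to 50 bases before it. AP-1 letters were in 6.75% and CREB/ATF letters in 1.55% of all promoters searched. RUNX letters, which 14% of all promoters held, were in 6 of the 10 members' stretches, those of Gzma, Gzmb, Gzmc, Prf1, Nkg7 and Lamp1. Srgn has 2 RefSeq starts and was counted by the first, and the stretch before its second start also held a RUNX match, from 202 to 197 bases before it. SMAD letters, which 42.2% of all promoters held, were in 2 of them, those of Gzmk and Srgn.

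The genes nearest to Gzmb by the same measure were Cd53, Tmem254a and Ifi209, at distances of 1.03, 1.07 and 1.19, so none was as close to Gzmb as Axl was to Nkg7. Cd53, which encodes a tetraspanin of leukocytes, was at 32.1, 111 and 112 FPKM in the BMPR1a-deficient libraries, against 196, 226 and 234 in WT (log2 fold change -1.55, SE 0.492, limma adjusted p = 0.241).

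Gzma and Gzmk lie near each other on chromosome 13 and encode granzymes that cleave after basic residues. Gzma (ENSMUSG00000023132, 113093825 to 113100981) was at 0.106, 0.366 and 0.707 FPKM in the BMPR1a-deficient libraries, against 0.605, 1.17 and 0.447 FPKM in WT. Gzmk (ENSMUSG00000042385, 113171608 to 113225908) was at 0.139, 0.239 and 0.385 FPKM in the BMPR1a-deficient libraries, against 0.142, 0.258 and 0.283 FPKM in WT. Both overlapped between the groups. They rested on about 3.70 to 25.4 fragments for Gzma and 6.37 to 18.1 for Gzmk in the BMPR1a-deficient libraries, and 16.7 to 35.7 and 5.48 to 13.9 in WT.

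Summed over the 9 granzyme genes in the table, granzyme transcripts came to 1.81, 5.47 and 8.56 FPKM in the BMPR1a-deficient libraries, against 11.9, 28.1 and 14.4 FPKM in WT. Gzmb made up 38.2%, 74.8% and 71.4% of that sum in the BMPR1a-deficient libraries, against 74.2%, 85.4% and 84.3% in WT. It was the most abundant granzyme transcript in every library. Of the other granzyme genes, Gzmm was at 0.576, 0.360 and 0.313 FPKM in the BMPR1a-deficient libraries, against 0.328, 0.459 and 0.304 in WT, and Gzmd, Gzme, Gzmf and Gzmg were at or below 0.0474 FPKM in every library. None of these 5 passed the filter.

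Prf1 (ENSMUSG00000037202, chromosome 10, 61297833 to 61304680) encodes perforin, the pore former through which granzymes reach the target cell. It was at 0.717, 1.19 and 1.10 FPKM in the BMPR1a-deficient libraries, against 1.15, 1.63 and 2.03 FPKM in WT. The groups overlapped slightly, and the log2 fold change was -0.37 (SE 0.187, limma adjusted p = 0.402). Set against perforin, Gzmb stood at 0.962, 3.45 and 5.55 times Prf1 in the BMPR1a-deficient libraries, against 7.66, 14.7 and 5.97 times in WT.

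Srgn (ENSMUSG00000020077, chromosome 10, 62493833 to 62527451) encodes serglycin, the proteoglycan on which granzymes and perforin are stored. It was at 121, 227 and 219 FPKM in the BMPR1a-deficient libraries, against 269, 325 and 283 FPKM in WT. Every BMPR1a-deficient library was below every WT library, and replicate 1 was well below the other BMPR1a-deficient libraries. The log2 fold change was -0.68 (SE 0.265, limma adjusted p = 0.315), and -0.38 without BMPR1a-deficient replicate 1 (limma adjusted p = 0.156). Lamp1 (ENSMUSG00000031447, chromosome 8, 13159161 to 13175338), a lysosomal membrane protein that marks degranulation when it reaches the cell surface, was at 52.4, 78.6 and 82.5 FPKM in the BMPR1a-deficient libraries, against 85.3, 77.8 and 82.4 FPKM in WT. BMPR1a-deficient replicate 1 alone lay outside the WT range. The log2 fold change of Lamp1 was -0.23 (SE 0.189, limma adjusted p = 0.576), and -0.02 without that library (limma adjusted p = 0.879).

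The inhibitors Serpinb9 and Serpinb6b lie near each other on chromosome 13, at 33003250 to 33017957 and 32965209 to 32979067. Serpinb9 (ENSMUSG00000045827), which blocks granzyme B in the cell that makes it, was at 2.97, 6.95 and 7.30 FPKM in the BMPR1a-deficient libraries, against 6.58, 7.91 and 8.24 FPKM in WT. Serpinb6b (ENSMUSG00000042842), an inhibitor of granzyme A in mice, was at 5.99, 16.2 and 16.0 FPKM in the BMPR1a-deficient libraries, against 17.7, 18.7 and 15.4 FPKM in WT. In both genes replicates 2 and 3 of the BMPR1a-deficient group fell within the WT range and replicate 1 was far below it. The log2 fold changes were -0.42 for Serpinb9 (SE 0.300, limma adjusted p = 0.538) and -0.52 for Serpinb6b (SE 0.364, limma adjusted p = 0.524). Without BMPR1a-deficient replicate 1 they were -0.07 and -0.09 (limma adjusted p = 0.742 and 0.634). The coding sequences of these serpins matched at 65.3% of 1143 aligned positions, and 0.378% and 2.92% of their stretches of 50 bases occur in other genes.

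Granzyme B and its inhibitor were compared within each library. FPKM of Gzmb divided by that of Serpinb9 was 0.232, 0.589 and 0.837 in the BMPR1a-deficient libraries, against 1.34, 3.03 and 1.47 in WT. The ratio was below 1 in each BMPR1a-deficient library and above 1 in each WT library. On the log2(FPKM + 1) scale it differed by -1.49, and an exact two-sided permutation test gave p = 0.1, the smallest value that 3 against 3 libraries allow.

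**Figure D2:**
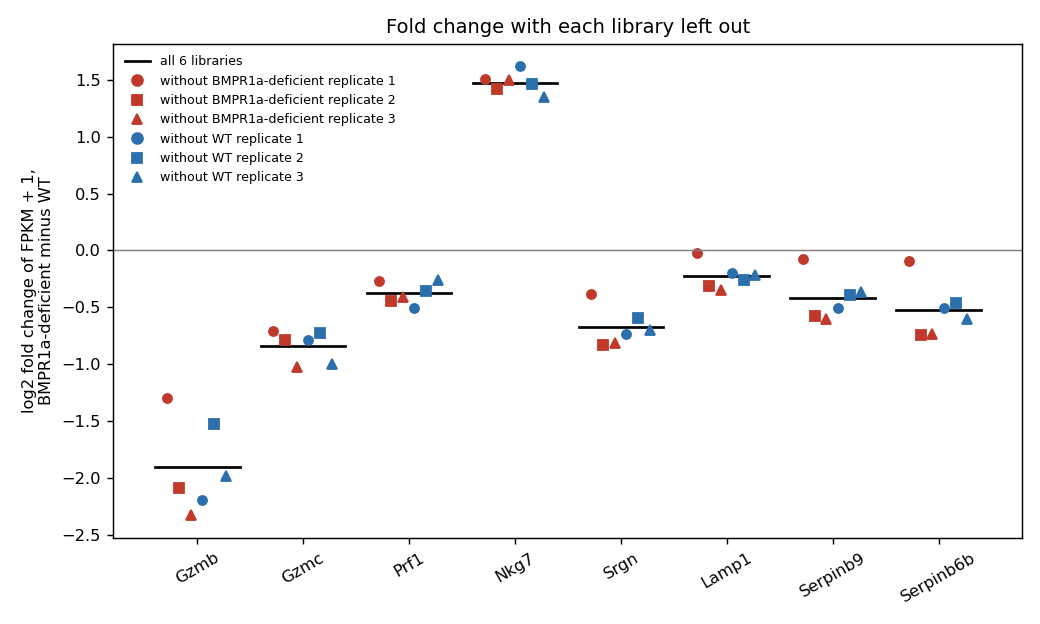
log2 fold change of FPKM + 1 (vertical axis, BMPR1a-deficient minus WT) for the 8 tested members, with all 6 libraries (black line) and with each library left out (red, a BMPR1a-deficient library left out, blue, a WT library). Leaving out BMPR1a-deficient replicate 1 moves Lamp1, Serpinb9 and Serpinb6b to within 0.1 of 0 and leaves Nkg7 at 1.505 and Gzmb at -1.29.

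The other genes of the granule pathway, in 6 lists also chosen with earlier results known, showed few calls. Of their 64 tested genes, 1 was higher and 0 were lower, against 1.07% called in either direction among all genes tested. At an unadjusted p under 0.05 in limma there were 4 genes of granule content, 3 of granule release, 0 serpins and cystatins, 1 death ligand and 6 regulators, where 2034 of all 13413 genes tested reached it.

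**Figure D3:**
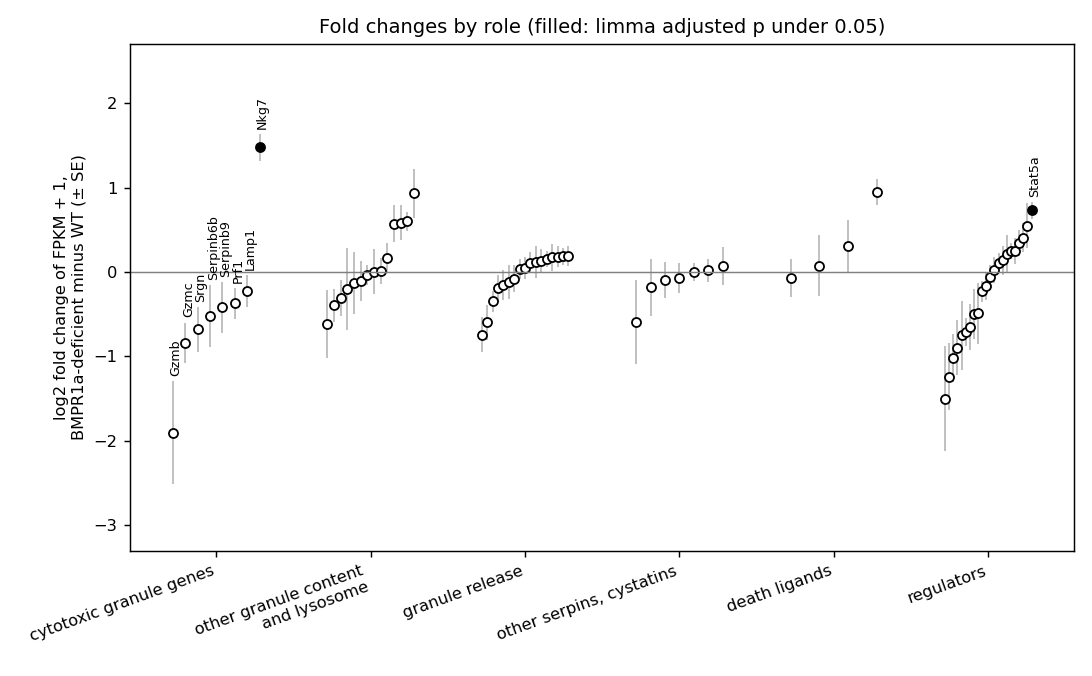
log2 fold change of FPKM + 1 (vertical axis, BMPR1a-deficient minus WT) with its SE for every tested gene, grouped by role along the horizontal axis. Filled points passed a limma adjusted p of 0.05, which only Nkg7 among the cytotoxic granule genes and Stat5a among the regulators did.

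Of the 14 tested genes of granule content and lysosome, 0 passed the threshold, and their median log2 fold change was -0.02. In the 3 with the smallest unadjusted p all BMPR1a-deficient values lay above all WT values, as in 15.9% of all genes tested. Picking genes by p favours groups that do not overlap. Igf2r, a mannose 6-phosphate receptor that sorts enzymes such as granzymes to lysosomes, was at 50.3, 52.4 and 49.2 FPKM in the BMPR1a-deficient libraries, against 38.2, 30.9 and 30.7 in WT (log2 fold change 0.60, SE 0.116, limma adjusted p = 0.0904). Ctsw, which encodes the lymphocyte protease cathepsin W, was at 348, 290 and 280 FPKM, against 248, 132 and 123 in WT (limma adjusted p = 0.227), and Tfeb, a transcription factor of lysosomal genes, at 15.9, 10.6 and 9.30 against 8.57, 7.46 and 6.48 (limma adjusted p = 0.285). Ctsc, whose product cathepsin C activates granzymes by trimming them, was at 34.2, 53.7 and 61.2 FPKM in BMPR1a-deficient libraries, against 57.2, 55.4 and 44.7 in WT.

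Of the 17 tested genes of granule release, 0 passed the threshold, with a median of 0.05. Sytl2, an effector of Rab27 proteins, was at 0.298, 0.615 and 0.759 FPKM in the BMPR1a-deficient libraries, against 1.12, 2.03 and 1.68 in WT (log2 fold change -0.74, SE 0.203, limma adjusted p = 0.183). Like Gzmc, it passed the filter only through its WT values. Lyst, the gene disrupted in mice with giant lysosomes, was at 1.77, 2.66 and 2.95 against 3.25, 4.17 and 5.29 in WT (limma adjusted p = 0.274). Rab27a, the GTPase that docks granules at the cell membrane, was at 31.8, 33.7 and 27.4 FPKM against 41.4, 42.2 and 35.1 in WT (limma adjusted p = 0.288). In all 3 the BMPR1a-deficient values lay below all WT values, as in 10.4% of all genes tested.

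Of the 7 tested other serpins and cystatins, 0 passed the threshold, with a median of -0.07. Cst7, which encodes cystatin F, an inhibitor of the cathepsins that activate granzymes, was at 2.52, 11.0 and 11.4 FPKM in the BMPR1a-deficient libraries, against 11.2, 10.5 and 11.9 in WT (limma adjusted p = 0.573). As with Serpinb9 and Serpinb6b, BMPR1a-deficient replicate 1 alone was low. Cstb was at 35.3, 76.8 and 82.7 FPKM, against 80.7, 64.7 and 63.0 in WT, and Serpina3f at 5.21, 7.30 and 9.38, against 7.89, 8.80 and 6.53. Of the 4 death ligands, 0 passed the threshold. Tnfsf10, which encodes TRAIL, came closest, at 15.8, 19.0 and 17.7 FPKM in the BMPR1a-deficient libraries, against 8.79, 10.2 and 6.96 in WT (log2 fold change 0.95, SE 0.152, limma adjusted p = 0.0580). It passed in 4 alternatives: median-of-ratios scaling (limma adjusted p = 0.0457), quantile normalization (0.0484), equal sums over nuclear protein-coding genes (0.0494) and library weights (0.00635). It did not pass in the others, and with each library left out in turn the adjusted p was 0.0741 to 0.226. Lta and Fasl overlapped between the groups, at 15.1, 21.7 and 22.0 against 13.6, 24.3 and 11.0 FPKM for Lta and 1.34, 2.26 and 2.62 against 2.96, 1.73 and 1.99 FPKM for Fasl.

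Among 22 tested regulators of cytotoxic genes, 1 was higher and 0 were lower, with a median of -0.12. Stat5a, a transcription factor downstream of the IL-2 receptor, was at 79.3, 89.5 and 77.9 FPKM in the BMPR1a-deficient libraries, against 47.9, 50.7 and 48.9 in WT (log2 fold change 0.73, SE 0.098, limma adjusted p = 0.0399). Leaving out a library ended the call in 5 of 6 fits, and it was kept in the fit without BMPR1a-deficient replicate 1 (limma adjusted p = 0.0398). In that fit 2 further regulators, named here after their values were seen, were lower. Stat4, which carries the IL-12 signal, was at 22.0, 41.6 and 47.7 FPKM in the BMPR1a-deficient libraries, against 69.2, 73.8 and 74.9 in WT (log2 fold change -0.69 without that library, limma adjusted p = 0.0463, and adjusted p = 0.189 with it). Hopx, a homeodomain protein of effector lymphocytes, was at 4.68, 14.1 and 14.6 FPKM, against 24.7, 26.1 and 24.2 in WT (-0.76, limma adjusted p = 0.0278, and adjusted p = 0.245 with it). That fit called 1.57% of all genes tested, 0.999% higher and 0.567% lower. Of the T-box factors, Tbx21, which encodes T-bet, was at 14.1, 11.3 and 12.2 FPKM against 10.8, 9.92 and 7.14 in WT (limma adjusted p = 0.334), and Eomes at 2.45, 7.58 and 4.72 against 5.40, 6.16 and 9.24 (limma adjusted p = 0.546). Both were likewise named after their values were seen.

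**Figure D4:**
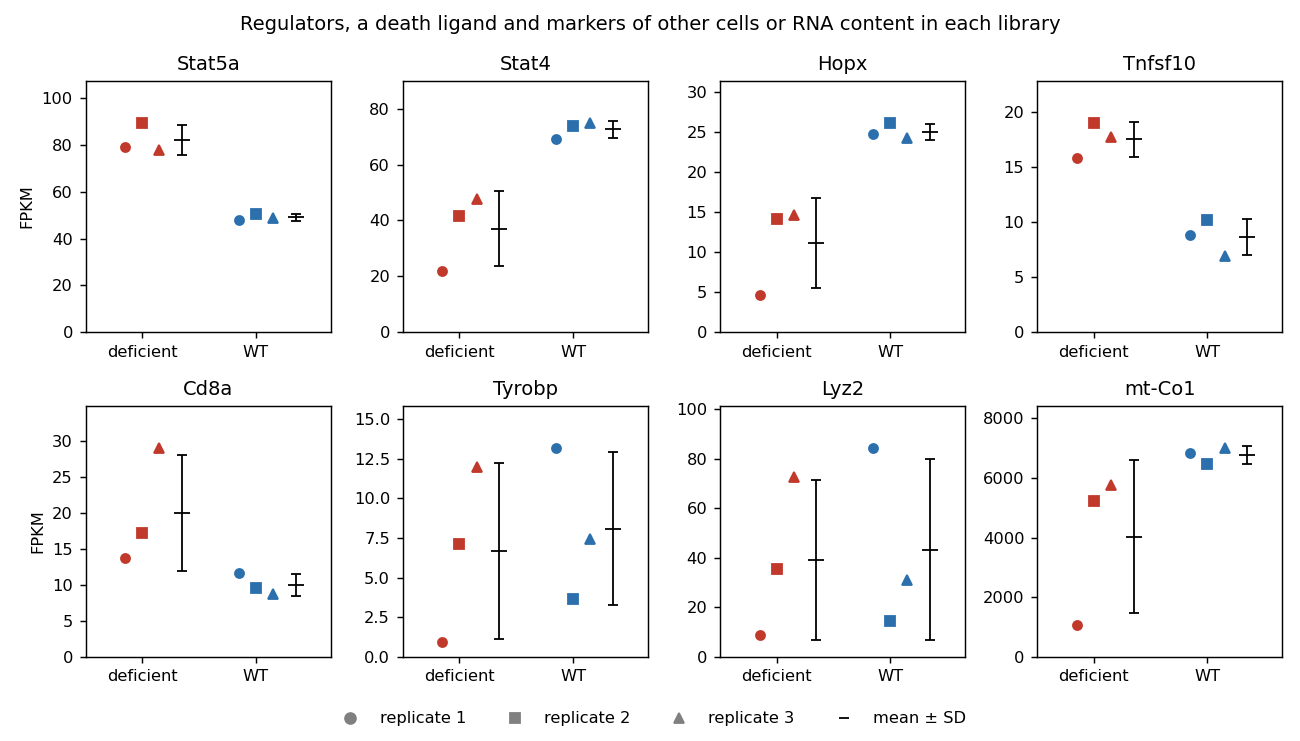
FPKM (vertical axis, from 0) of Stat5a, Stat4, Hopx and Tnfsf10 and of markers of CD8 T cells (Cd8a), NK and myeloid cells (Tyrobp), macrophages (Lyz2) and mitochondrial RNA (mt-Co1) in the 3 BMPR1a-deficient libraries (left, red) and the 3 WT libraries (right, blue), with mean and SD. Stat5a and Tnfsf10 lie above all WT libraries in the BMPR1a-deficient group, and mt-Co1, Tyrobp and Lyz2 are lowest in BMPR1a-deficient replicate 1.

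Granule genes are also expressed by other killer cells, so their markers were measured. Of 12 NK cell markers, 2 passed the filter, Fcer1g and Tyrobp, which myeloid cells share. The list summed to 2.60 to 36.9 FPKM in the BMPR1a-deficient libraries and 10.9 to 38.9 in WT, and was lowest in BMPR1a-deficient replicate 1. The defining Ncr1 was listed at 0 in 5 of the 6 libraries, and at 0.0222 FPKM in BMPR1a-deficient replicate 2. Klrb1c was at 0.598, 0.760 and 0.648 FPKM in the BMPR1a-deficient libraries, against 0.126, 0.0727 and 0.0692 in WT, below the filter. The 5 measured markers of CD8, gamma-delta and NKT cells summed to 38.8 to 69.8 FPKM in the BMPR1a-deficient libraries and 32.2 to 42.4 in WT. Cd8a was at 13.8, 17.2 and 29.1 FPKM in the BMPR1a-deficient libraries, against 11.7, 9.56 and 8.80 in WT (limma adjusted p = 0.236), and Cd8b1 at 24.1, 26.9 and 39.3 against 30.1, 23.1 and 23.2. Tcrg-C2, a constant segment of the gamma-delta receptor, was at 0.555, 1.10 and 0.765 against 0.184, 0.290 and 0.148, below the filter. Cd8a, Tcrg-C2 and Klrb1c lay above all WT libraries in the BMPR1a-deficient group. Among all genes tested 15.9% did so, a share that does not cover genes below the filter such as Tcrg-C2 and Klrb1c. Among the other NK cell markers Klre1 lay below all WT libraries, at 0.0446, 0 and 0.0221 FPKM against 0.0808, 0.0532 and 0.0530, and Tyrobp and Fcer1g overlapped, with means at 82.5% and 75.6% of WT. Without BMPR1a-deficient replicate 1 the means of Tyrobp and Fcer1g were at 118% and 111% of WT. The part of these cells in the Nkg7 result was not tested.

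Mast cell and basophil markers summed to 1.74 to 6.70 FPKM in the BMPR1a-deficient libraries and 3.00 to 4.64 in WT, with Mcpt8 at 0.729 to 3.74 and 1.70 to 2.49, Hdc at 0.637 to 1.65 and 0.908 to 1.59 and Cpa3 at 0.257 to 1.05 and 0.258 to 0.321. Myeloid markers summed to 20.3 to 229 FPKM and 26.2 to 145, led by Lyz2 at 8.71, 35.6 and 72.8 against 84.5, 14.5 and 30.9 and by S100a8 at 3.99, 24.8 and 67.1 against 14.0, 0.603 and 3.12. B cell markers summed to 37.9 to 54.6 FPKM and 29.3 to 58.0, led by Cd79b at 9.50 to 18.1 and 9.86 to 18.1 and by Cd79a at 9.41 to 16.6 and 7.96 to 16.2. Tested were 2 of 7 mast cell and basophil markers, 8 of 12 myeloid markers and 7 of 7 B cell markers. None of the tested markers passed the threshold, and the others lay below the filter. The part of these cells in the granule gene values was not tested.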

How the data were processed

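RNA was sequenced from 6 libraries of sorted aTreg, 3 BMPR1a-deficient and 3 WT. The deposited values are FPKM, 1 column per library. TopHat2, Cufflinks, Cuffdiff and the build GRCm38.p4 are named per the submitters' processing notes. Their versions, the strand handling, the annotation and any scaling between libraries are not stated in those notes. No count model was applied, since FPKM hold no counts. Columns were assigned by name, and 0 were left unmapped. GENCODE vM21 (GRCm38) gave symbols for 24876 identifiers (96.6%) and positions.

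The test was limma 3.58.1 (R 4.3.3), fitted to log2(FPKM + 1) by group for genes whose mean FPKM over the 6 libraries was at least 1. The eBayes step used a trend, tests were two-sided, and Benjamini-Hochberg adjustment ran over all genes tested, with a threshold of 0.05. Fold changes give BMPR1a-deficient minus WT on that scale, on which the change of low genes is understated. The fit was tested on simulated data. The filter was kept when a library was left out.

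Depth was estimated from 3536 genes of 1000 to 6000 bases with a single annotated transcript, as the densest low value of FPKM times length. It is approximate, as are the fragments per gene derived from it with the longest transcript. Promoters came from RefSeq (GRCm38.p6), which held all 10 members, and both starts of Srgn were searched, with the first counted. Shared stretches of 50 bases and coding identity came from GENCODE transcripts.

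The members and lists were chosen with earlier results of these data known. The genes named are all members, up to 4 called genes of each related list or the 3 with the smallest unadjusted p where none was called, the defining and most abundant markers of other cell types, and the 3 genes with the profiles nearest to Nkg7 and to Gzmb. The values of 1 gene that this rule names are not reported here. Ctsc, Stat4, Hopx, Tbx21, Eomes, Tcrg-C2 and Klre1 were added after their values were seen. Alternatives varied the pseudocount, filter, scaling, eBayes trend, library weights, a replicate block and the libraries used.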

Additional observations from a re-analysis of the deposited data

How the results depend on the processing

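Over 134 refits of the 8 tested members under the alternatives, 0 turned a direction and 5 ended a call, all of them that of Nkg7. The number of members called stayed at 1 with the other pseudocounts, filters and scalings, without the eBayes trend and with library weights, and it was 0 to 1 when a library was left out. The number of all genes called was 1240 with library weights, in which BMPR1a-deficient replicate 1 had the lowest weight, and 14 to 210 when a library was left out. Of the related genes, 2 were called with median-of-ratios scaling, 2 with quantile normalization, 2 with equal sums over nuclear protein-coding genes, 9 with library weights and 0 to 3 when a library was left out. The cause of these shifts was not tested, and fits with fewer libraries have less power. The difference in the Gzmb to Serpinb9 ratio lay between -1.14 and -1.84 in every alternative run.

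The labels do not state whether same-numbered libraries were paired. The correlations of their deviations from the group means were 0.0103, 0.0645 and 0.0518, against -0.0935 to 0.0412 between libraries of unlike number. Values this small cannot decide whether the libraries were paired. Not every library correlated best with its own number. With the replicate block 10 of all genes, 0 members and 0 related genes were called, and the limma adjusted p of Nkg7 was 0.108.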
